A study of Mus musculus with 7 samples.

Results

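The genes described here are the nuclear genes of oxidative phosphorylation. They were taken by symbol from a table of 48795 mouse genes: symbols beginning with Nduf, Uqcr, Uqcc, Cox followed by 4 to 8, or Atp5, and the succinate dehydrogenase genes Sdha, Sdhb, Sdhc and Sdhd, without 7 symbols that end in -ps and mark pseudogenes. This gave 100 genes. Of these, 36 encode subunits of complex I, 4 of complex II, 8 of complex III, 20 of complex IV and 16 of ATP synthase, 11 encode assembly factors, 1 is Atp5s, which is counted apart, and 4 are copies annotated as pseudogenes (Cox6c2, Ndufa11b, Ndufb4c and Ndufs6b). Bulk RNA sequencing compared sorted cells of the spleen, 3 libraries of memory B cells (MBCs) and 4 of plasma cells (PCs). All mice were female wild-type C57BL/6 animals of 8 to 12 weeks that had received sheep red blood cells intravenously 10 days earlier, so there was no unimmunized group. After magnetic separation with beads against CD43, MBCs were sorted as cells with B220, CD38 and CD273 and without CD138 or IgD, and PCs as CD138-positive cells with low B220 and no IgD. The labels do not say whether each library came from a separate mouse, so p-values measure only the spread between these libraries.

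Oxidative phosphorylation takes place in the inner mitochondrial membrane. Complex I oxidizes NADH and complex II oxidizes succinate, and both pass electrons to ubiquinone. Complex III hands them to cytochrome c, complex IV passes them to oxygen, and ATP synthase uses the proton gradient that complexes I, III and IV build. All complexes except complex II also hold subunits encoded by the mitochondrial genome, so each of them draws on nuclear and mitochondrial transcripts. PCs secrete antibody continuously, a task that needs ATP, while MBCs are known as long-lived, mostly quiescent cells.

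The upstream sequences of these genes are known to share binding motifs of a few regulators. Of the 100 genes, 77 had an entry in a RefSeq promoter table (GRCm38.p6; 250 bases before and 50 after the start), and 7 motifs were searched in it on both strands. GCATGCGC, the core of the site of the regulator NRF1, stood in 12 of the 77 windows (15.6%). It stood in 6.36% of the 7889 windows found for genes tested below and in 2.80% of all windows in the table. CCGGAAG, read by ETS factors such as GABP, stood in 22.1% of the 77, 21.8% of the tested and 9.12% of all windows. The shares in the same order were 46.8%, 65.9% and 35.9% for GGGCGG (SP1), 45.5%, 40.2% and 37.9% for CCAAT (NFY), and 14.3%, 8.18% and 6.48% for AAGATGG (YY1). For CACGTG (E-box) they were 7.79%, 10.7% and 7.24%. For TCAAGGTCA (estrogen-related receptors) they were 2.60%, which is 2 of the 77 windows, 0.27% and 0.41%. A match describes letters only, and no difference was tested.

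Shown are the upstream stretches of Atp5g1, a gene called higher in PCs below, and of Atp5l and Cox6a1, which keep the NRF1 core outside annotated exons. Each is cut to bases that lie in no annotated exon, reads 5′ to 3′ on the minus strand, and has every match to the 7 motifs in capitals. Atp5g1 (chr11:96075671-96075881) holds only CCAAT matches in this stretch, a pair of which overlap on opposite strands. Atp5l (chr9:44920752-44920992) holds CCAAT, the NRF1 core, the ETS motif on the reverse strand and the E-box. In Cox6a1 (chr5:115348982-115349129) the NRF1 core overlaps its own reverse complement, followed by CCAAT and by SP1 motifs on the reverse strand. The other called genes, Ndufa1 and Ndufa13, are not shown because nearly all bases upstream of them lie in annotated exons.
Atp5g1: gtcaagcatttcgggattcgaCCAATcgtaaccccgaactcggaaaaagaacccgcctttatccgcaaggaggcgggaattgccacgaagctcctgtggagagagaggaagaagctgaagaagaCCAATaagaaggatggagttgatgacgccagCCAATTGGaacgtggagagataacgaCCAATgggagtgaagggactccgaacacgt
Atp5l: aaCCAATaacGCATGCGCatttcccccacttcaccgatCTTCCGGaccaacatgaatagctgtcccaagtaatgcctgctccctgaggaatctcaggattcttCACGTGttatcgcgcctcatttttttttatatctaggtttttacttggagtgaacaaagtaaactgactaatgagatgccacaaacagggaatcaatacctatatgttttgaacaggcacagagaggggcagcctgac
Cox6a1: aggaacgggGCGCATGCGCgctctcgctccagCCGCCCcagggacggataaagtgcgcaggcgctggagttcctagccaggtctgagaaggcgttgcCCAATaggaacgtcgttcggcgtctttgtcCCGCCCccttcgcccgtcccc

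Values are TPM, a length-corrected share of a library's transcripts, as the authors deposited them, divided by a factor per library and called scaled TPM. Scaling was needed because immunoglobulin genes took 49.4% to 55.9% of the TPM of a PC library and 1.65% to 3.16% of an MBC library. By this measure the median gene lay 0.14 higher in PCs (log2). Reads per TPM were estimated per 1 kb of effective length, which is the transcript length minus a fitted 185 to 225 bases. They were 6.26 to 11.6 in MBC libraries and 9.37 to 16.5 in PC libraries. At 617 bases, the median transcript length of the tested genes of the family, 3 reads corresponded to 0.32 to 0.98 scaled TPM, a limit that covers counting error only.

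The library labelled MBC replicate 3 stood apart in its markers, and counts of calls are given with and without it. Cd38, a gate marker of MBCs, had a scaled TPM of 130.3 in MBC replicate 1, 185.7 in replicate 2, 6.77 in the library labelled replicate 3, and 9.89 to 21.3 in PCs. The 5 memory B cell genes listed as markers summed to 297 and 369 in replicates 1 and 2, to 17.2 in the remaining MBC library and to 15.2 to 28.7 in PCs. The sum of 6 proliferation genes was 756 scaled TPM in that library, against 104 and 116 in the other MBC libraries and 401 to 531 in PCs. It did not resemble PCs in their own markers: Sdc1, which encodes CD138, was at most 0.058 scaled TPM in any MBC library and 49.6 to 78.1 in PCs, and 5 plasma cell genes summed to 130.2 to 185.9 in MBC libraries and 8742 to 14574 in PCs. The sum of 5 erythroid genes was 2897 scaled TPM in MBC replicate 2 and at most 72.6 elsewhere, and that of 5 T cell genes was 0 to 1.08 in MBCs and 14.6 to 34.6 in PCs. MBC replicates 1 and 2 stood apart in other ways: 12983 and 11527 genes were above 0 in them, against 14463 to 18061 in the other libraries, and mitochondrial genome transcripts took 33.2% and 33.5% of their TPM, against 19.7% in the library labelled MBC replicate 3 and 8.10% to 9.80% in PCs. The part of other cells, proliferation and library quality in the results was not tested.

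Of the 100 genes, 89 passed the filter of at least 1 TPM in at least 3 libraries and were tested with limma on log2(scaled TPM + 1). Each of the 89 reached 1 TPM in at least 1 MBC library, but 4 did so there only in the library labelled MBC replicate 3. The 11 that did not pass were isoforms of other tissues, described with complex IV, and pseudogene copies. Most genes of the family had higher values in PCs: the median log2 fold change (PC minus MBC) was 1.101, against 0.14 over all 11573 genes tested, and 76 of the 89 (85.4%) were positive, against 55.5% of all genes. Few of them were separable from the spread between libraries. Atp5g1, Ndufa1 and Ndufa13 passed an adjusted p of 0.05 as higher in PCs, which is 3 of 89 (3.37%) where 6.41% of all tested genes passed, and 0 passed as lower (2.14% of all genes). At an unadjusted p under 0.05 there were 31 higher and 0 lower, where 15.3% and 8.93% of all genes were. All PC libraries lay above all MBC libraries for 15 of the 89 genes (16.9%; 13% of all genes) and below them for 0 (8.68% of all genes). Cox7c and Ndufs5 lay just outside the threshold, with a limma adjusted p of 0.0532 and 0.0566.

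Leaving out the library labelled MBC replicate 3 changed the count of calls. Then 38 of 89 genes (42.7%) were called higher and 0 lower, where 15.1% and 8.24% of all genes were. The groups did not overlap for 50 genes higher in PCs (56.2%; 26.4% of all genes) and for 1 gene lower (18.1% of all genes), Atp5s. The median log2 fold change of the family was then 1.53 and that of all genes 0.21. For 26 of the 38 genes, the value in the library labelled MBC replicate 3 lay inside or above the PC range. The titles of MBC replicates 1 and 2 and of PC replicates 1 to 3 share a code prefix, and the remaining libraries share another, whose meaning the labels do not give. Within the more frequent prefix 23 of 88 genes were called higher (26.1%; 9.89% of all genes) and 0 lower (4.37% of all genes). The other prefix holds 1 library per group and gives no test.

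**Figure D1:**
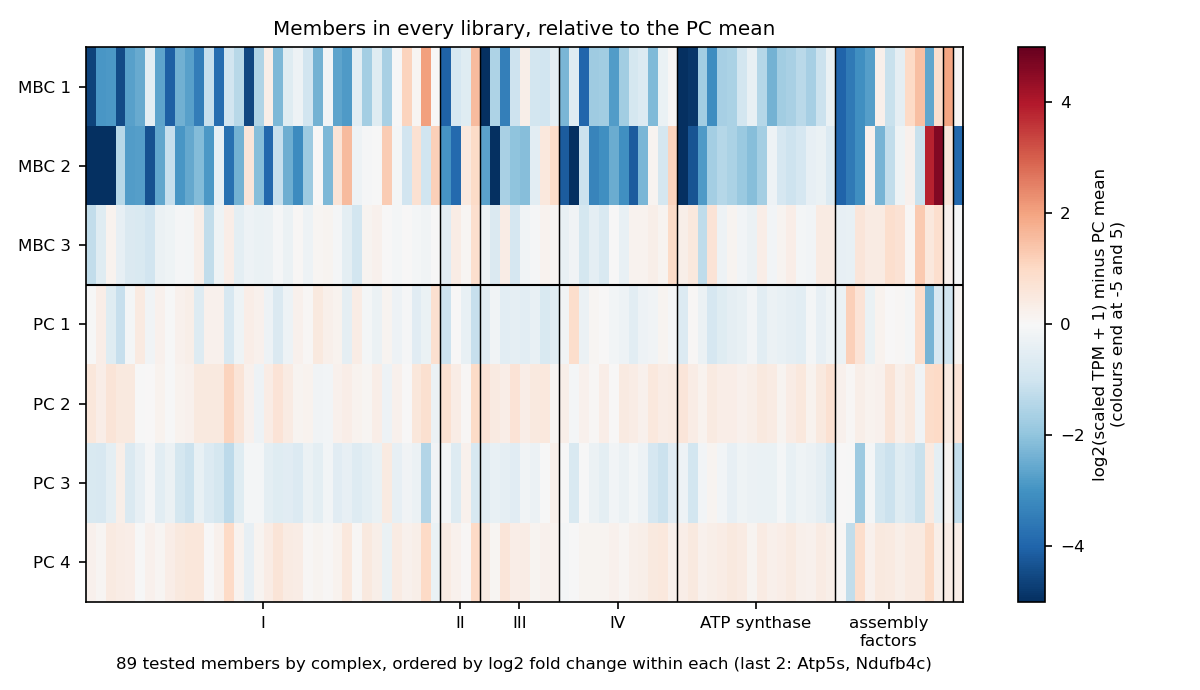
Heat map of the 89 tested genes in each of the 7 libraries, by complex, as log2(scaled TPM + 1) minus the mean of the 4 PC libraries. MBC replicates 1 and 2 are below that mean for most genes, while the library labelled MBC replicate 3 is close to the PC libraries.

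The MBC libraries varied more than the PC libraries. The median standard deviation of the 89 genes was 1.35 (log2) over MBC libraries and 0.48 over PC libraries, where all tested genes had 0.91 and 0.47. It was larger in MBCs for 82 of the 89 genes (92.1%; 77.5% of all genes). MBC replicates 1 and 2 were more than 2-fold apart for 55 of the 89, and for 5834 of all 11573 tested genes. Pearson's r of log2(scaled TPM + 1) across the 89 genes, which share their libraries and are no replicates, was 0.49 between MBC replicates 1 and 2, 0.90 to 0.98 within PCs, and 0.89 to 0.96 for the library labelled MBC replicate 3 with each PC library. That library lay above both other MBC libraries for 64 of the 89 genes (71.9%; 35.1% of all genes).

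PC libraries also split among themselves. For 66 of the 89 genes (74.2%) PC replicates 2 and 4 both lay above PC replicates 1 and 3, which was so for 22.6% of all tested genes, and the opposite order held for 2 genes. Among the 13 subunits encoded by the mitochondrial genome the opposite order held for 9, and 0 were higher in both. Genes above 0 numbered 16768 and 16138 in PC replicates 2 and 4, and 14463 and 14884 in PC replicates 1 and 3. The split was noticed in the values of the family and was not tested, nor was the part of gene detection in it. The title prefix does not follow it. PC replicates 1 and 3 share their full title codes with MBC replicates 1 and 2. PC replicate 4 shares its code with the library labelled MBC replicate 3, and the code of PC replicate 2 stands in no MBC library. What the codes mark is not given.

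Summed over all 100 genes, MBC replicates 1 and 2 had 2537 and 3674 scaled TPM, the library labelled MBC replicate 3 had 6071, and the PC libraries had 5988, 8273, 5263 and 7931. The PC mean was 1.68 times the MBC mean, and 2.21 times without the library labelled MBC replicate 3. Because that library fell inside the PC range, the groups overlapped. The same held for complexes I, III, IV and ATP synthase, with ratios of 1.77, 1.66, 1.91 and 1.64. Complex II had a ratio of 1.05, with sums of 121, 119.7 and 149 scaled TPM in MBCs and 87.8, 179.5, 111 and 167 in PCs. The assembly factors summed to 39.6, 202 and 89.8 in MBCs and 81.7, 94.4, 53.8 and 89.5 in PCs, a ratio of 0.72 in which MBC replicate 2 was the highest library. Without MBC replicate 2 the log2 ratio of the assembly factors was 0.30. In bulk samples fewer cells of a type and less RNA per cell cannot be told apart.

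**Figure D2:**
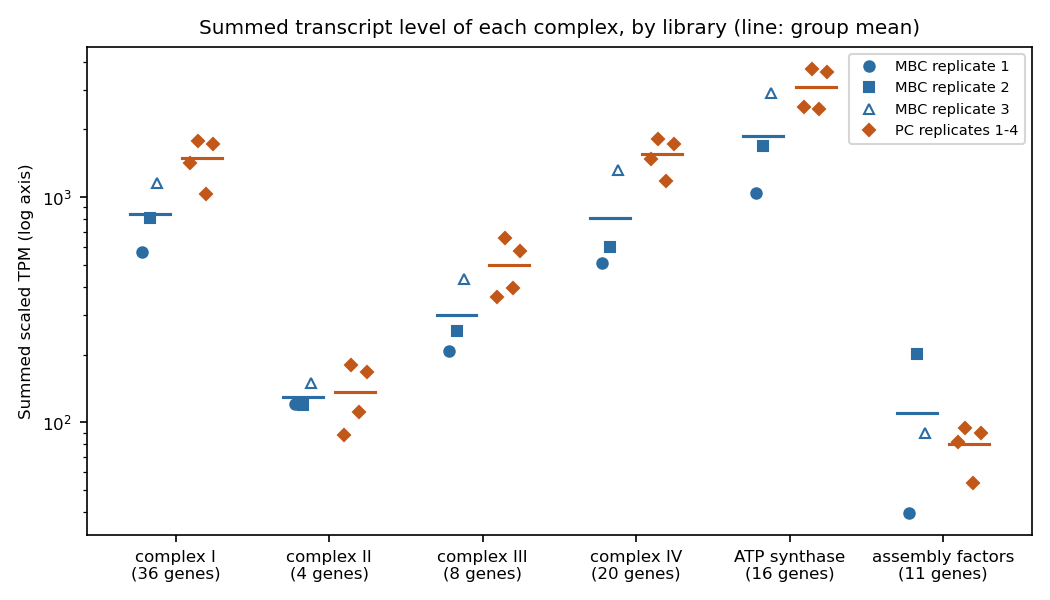
Summed scaled TPM (log axis) of the genes of each complex, 1 point per library, by group. MBC replicates 1 and 2 lie below all PC libraries for complexes I, III, IV and ATP synthase, the library labelled MBC replicate 3 lies within the PC range there, and complex II and the assembly factors overlap.

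Complex I holds 36 of the genes, all of them tested. A positive log2 fold change was found for 32, and the median was 1.31. With all libraries 2 were called higher (6.41% of all genes) and 0 lower (2.14% of all genes). Without the library labelled MBC replicate 3, 15 were called higher (15.1% of all genes). Ndufa1, a small accessory subunit of the membrane arm, was 5.81, 0 and 70.6 scaled TPM in MBCs and 165, 249, 97.4 and 192 in PCs. All PC values lay above all MBC values, and the MBC values ran from not detected to near the lowest PC library. The log2 fold change was 4.41 (SE 1.14; limma, adjusted p = 0.043). The call was lost when any 1 library other than the one labelled MBC replicate 3 was left out (limma, adjusted p = 0.0836 to 0.115). Ndufa13, an accessory subunit also known as GRIM-19, was 5.23, 4.3 and 20.1 scaled TPM in MBCs and 47.6, 34.6, 26.1 and 34.7 in PCs. Again the groups did not overlap, and the log2 fold change was 2.02 (SE 0.53; limma, adjusted p = 0.0462). This call was lost in the same 6 cases (limma, adjusted p = 0.0877 to 0.126). Ndufa7, Ndufb6 and Ndufv3 did not overlap between the groups either, with log2 fold changes of 1.32, 1.94 and 1.75, but did not pass the threshold (limma, adjusted p = 0.118, 0.184 and 0.0696).

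Subunits of the catalytic core of complex I carry its flavin and iron-sulfur clusters or lie near the ubiquinone site. Those described here did not go one way. Ndufs1, an iron-sulfur subunit of the NADH-oxidizing arm, was 27.02, 62.5 and 26.4 scaled TPM in MBCs and 48.01, 21.5, 23.7 and 20.97 in PCs, and its log2 fold change was -0.39 (SE 0.46; later brackets give both in this order). Ndufs7, near the ubiquinone site, was 33.03, 53.2 and 28.8 in MBCs and 20.3, 46.3, 24.9 and 37.3 in PCs (-0.27, SE 0.41), and Ndufs3 was 32.5, 39.3 and 24.3 against 61.7, 53.6, 29.6 and 48.96 (0.56, SE 0.37). In these 3 genes the groups overlapped, and the library labelled MBC replicate 3 was the lowest of the MBC libraries. Ndufs8, an iron-sulfur subunit, was 4.198, 0 and 41.9 scaled TPM in MBCs and 23.9, 57.7, 25.7 and 51.2 in PCs (2.64, SE 1.05; limma, adjusted p = 0.16). Ndufv1, the flavin subunit that binds NADH, was 3.03, 3.57 and 23.9 in MBCs and 31.5, 29.5, 11.7 and 38.4 in PCs (1.79, SE 0.70; limma, adjusted p = 0.154). Its partner Ndufv2 was 1.45, 5.04 and 31.96 against 16.1, 36.99, 19.95 and 38.7 (1.78, SE 0.80; limma, adjusted p = 0.208). For Ndufs8, Ndufv1 and Ndufv2, MBC replicates 1 and 2 lay below all PC libraries while the library labelled replicate 3 lay among them, and all 3 genes were called higher without it (limma, adjusted p = 0.0072, 0.0122 and 0.012).

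Some accessory subunits of complex I differed little. Ndufb8, of the membrane arm, was 41.7, 40.3 and 39.5 scaled TPM in MBCs and 36.2, 50.4, 32.3 and 57.1 in PCs (0.08, SE 0.34). Ndufab1, the acyl carrier protein that also serves mitochondrial fatty acid synthesis, was 40.7, 61.5 and 73.05 in MBCs and 50.7, 78.8, 50.4 and 77.3 in PCs (0.14, SE 0.35). Both genes overlapped between the groups. Reads can be split between near-identical copies, so Ndufb4 and its pseudogene-annotated copy Ndufb4c were summed: 51.5, 2.61 and 32.3 scaled TPM in MBCs and 36.8, 57.3, 13.6 and 48.1 in PCs, which overlapped.

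Complex II, the succinate dehydrogenase that also belongs to the citric acid cycle, differed among its 4 subunits, and none was called with all libraries. Sdha, the flavoprotein, was 31.5, 67.7 and 51.8 scaled TPM in MBCs and 37.3, 50.7, 55.8 and 50.6 in PCs (0.00, SE 0.36). Sdhb, the iron-sulfur subunit, was 14.98, 0.93 and 35.5 in MBCs and 27.8, 35.8, 17.1 and 32.1 in PCs (1.44, SE 0.86; limma, adjusted p = 0.344). These 2 catalytic subunits overlapped between the groups. Sdhc, a membrane anchor, was 0.681, 2.59 and 17.5 scaled TPM in MBCs and 12.3, 45.1, 24.9 and 35.2 in PCs (2.52, SE 0.80; limma, adjusted p = 0.088), and it was called without the library labelled MBC replicate 3 (limma, adjusted p = 0.0072). Sdhd, the other anchor, was 73.8, 48.4 and 44.1 in MBCs and 10.4, 47.9, 13.4 and 48.6 in PCs (-1.13, SE 0.59; limma, adjusted p = 0.278). Its low values lay in PC replicates 1 and 3, and those of PC replicates 2 and 4 were within the MBC range.

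Complex III, the cytochrome bc1 complex, has 8 genes here, of which 7 had a positive log2 fold change (median 0.99) and 0 were called. Without the library labelled MBC replicate 3, 3 of the 8 were called higher (15.1% of all genes). The large core proteins differed little: Uqcrc1 was 10.8, 32.5 and 24.7 scaled TPM in MBCs and 12.5, 32.2, 21.9 and 25.9 in PCs (0.09, SE 0.49), and Uqcrc2 was 30.8, 82.9 and 46.3 against 29.8, 47.4, 52.6 and 49.1 (-0.16, SE 0.41). Uqcrfs1, the Rieske iron-sulfur protein that takes electrons from ubiquinol, was 38.2, 6.41 and 27.4 in MBCs and 21.5, 39.9, 27.3 and 40.9 in PCs (0.68, SE 0.58). The small subunits Uqcr11, Uqcrq, Uqcr10 and Uqcrb had log2 fold changes of 1.298 to 2.76, and the small subunit Uqcrh had 0.50. Uqcr11 was 0, 5.82 and 36.5 scaled TPM in MBCs and 28.9, 68.97, 28.04 and 55.9 in PCs (2.76, SE 1.01; limma, adjusted p = 0.133), and was called without the library labelled MBC replicate 3 (limma, adjusted p = 0.00975). Uqcrq was 35.2, 1.11 and 62.2 against 92.3, 144, 79.6 and 113 (2.64, SE 0.98; limma, adjusted p = 0.136). Uqcrq and Uqcrb (1.298, SE 0.49; limma, adjusted p = 0.144) did not overlap between the groups.

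Complex IV, cytochrome c oxidase, had a median log2 fold change of 1.74 over its 12 tested genes, and 0 of them were called. Without the library labelled MBC replicate 3, 6 of the 12 were called higher (15.1% of all genes). With all libraries the groups did not overlap for 5 of the 12, all higher in PCs (13% of all genes): Cox6a1, Cox7a2, Cox7c, Cox8a and Ndufa4. Cox7c, a small membrane subunit, was 73.5, 29.01 and 148 scaled TPM in MBCs and 251, 312, 179 and 273 in PCs (1.85, SE 0.51; limma, adjusted p = 0.0532). Cox6a1, the form found in most tissues, was 16.8, 133 and 153 in MBCs and 228, 320.04, 272 and 305 in PCs (1.97, SE 0.67; limma, adjusted p = 0.11). Ndufa4, first assigned to complex I and now known as a complex IV subunit, was 34.2, 12.9 and 90.6 in MBCs and 97.7, 159.9, 94.3 and 125 in PCs (1.73, SE 0.57; limma, adjusted p = 0.102). In these genes the library labelled MBC replicate 3 was the highest of the MBC libraries yet below every PC library. Other subunits overlapped. Cox4i1 was 32.2, 169 and 184 scaled TPM in MBCs and 135, 218, 84.3 and 213 in PCs (0.59, SE 0.62). Cox5a was 46.6, 3.87 and 96.1 against 59.3, 112, 79.7 and 102 (1.62, SE 0.86), and Cox5b was 71.8, 1.57 and 97.4 against 206, 103, 64.3 and 109 (2.08, SE 1.097). For Cox5a and Cox5b, MBC replicate 2 alone was far below the other libraries.

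Several complex IV subunits exist as paralogs whose balance differs between tissues, and their shares are ratios within a library that scaling does not change. Cox7b2, Cox8b and Cox8c were listed at 0 in all 7 libraries, and Cox4i2, Cox6b2, Cox7a1 and Ndufa4l2 were at no more than 2.26 scaled TPM in any. Cox6a2, the heart and muscle form, was 2.61, 0 and 0 scaled TPM in MBCs and 14.1, 1.26, 0.837 and 1.27 in PCs, its highest value standing in PC replicate 1. Isoforms known from other tissues were thus at or near 0 in most libraries. Cox7a2, the common form of its family, made up 8.27%, 0.75% and 17.02% of the family's TPM in MBCs and 31.97%, 32.2%, 43.3% and 29.3% in PCs. Its relative Cox7a2l, also called SCAF1 and known for joining complexes III and IV into supercomplexes, made up 91.7%, 99.3% and 82.9% in MBCs and 68.03%, 67.5%, 56.7% and 70.7% in PCs. Neither share overlapped between the groups, the library labelled MBC replicate 3 included. The median transcript length was 477 bases for Cox7a2 and 989.5 bases for Cox7a2l, and the part of length in these shares was not tested. As levels, Cox7a2 was 7.101, 1.25 and 30.2 scaled TPM in MBCs and 34.2, 48.1, 38.3 and 36.8 in PCs (2.27, SE 0.75; limma, adjusted p = 0.101). Cox7a2l was 78.8, 166 and 147 in MBCs and 72.7, 101, 50.2 and 89.004 in PCs (-0.71, SE 0.39; limma, adjusted p = 0.297), and of the tested complex IV genes it alone had a negative value.

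**Figure D3:**
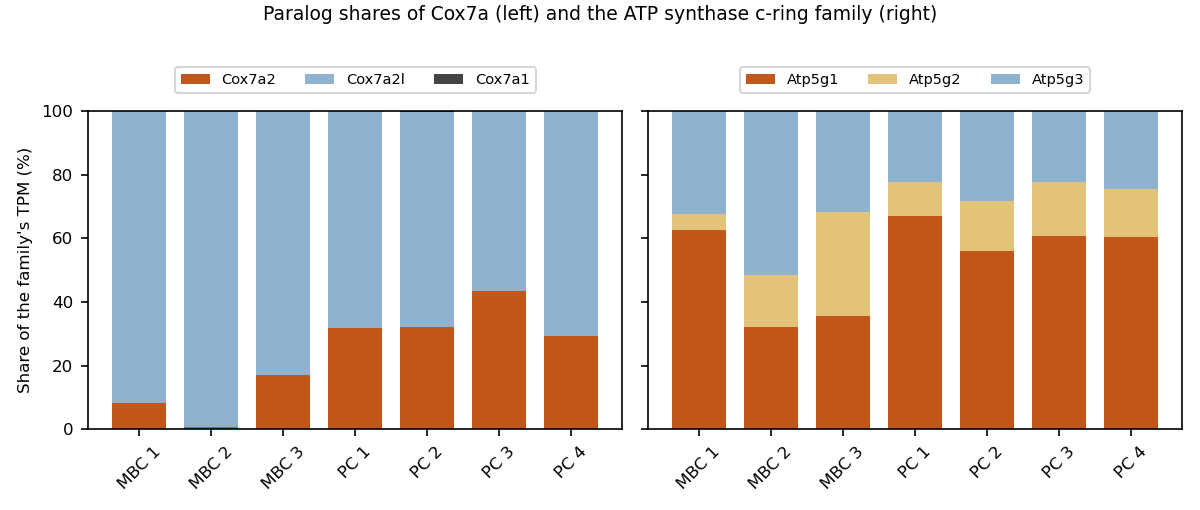
Share of a family's TPM (%) taken by each paralog in each library, for the Cox7a genes and the c subunit genes of ATP synthase. The share of Cox7a2 is larger in each PC library (29.3% to 43.3%) than in any MBC library (0.75% to 17.02%), while the Atp5g1 share of MBC replicate 1 (62.6%) lies within the PC range.

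All 16 ATP synthase genes were tested and all 16 had a positive log2 fold change on scaled TPM, from 0.19 to 3.74, with a median of 0.93. With TPM as deposited their summed level had a negative log2 ratio (-0.67). Of the 16, 1 was called higher (Atp5g1), where 6.41% of all genes were. Atp5g1 encodes the c subunit, of which a ring turns in the membrane as protons pass. It was 89.5, 41.3 and 125 scaled TPM in MBCs and 245, 342, 276 and 352 in PCs, and every PC value lay above every MBC value. The log2 fold change was 1.94 (SE 0.40; limma, adjusted p = 0.016). Without PC replicate 2 or PC replicate 4 the limma adjusted p was 0.0544 and 0.0538, and the call was lost. Atp5g2 and Atp5g3 encode the same mature c subunit with other targeting sequences. Atp5g2 was 7.32, 20.8 and 114 scaled TPM in MBCs and 38.5, 95.7, 77.6 and 86.6 in PCs (1.38, SE 0.77; limma, adjusted p = 0.311). Atp5g3 was 46.2, 66.1 and 111 against 81.8, 172, 102 and 142 (0.77, SE 0.40; limma, adjusted p = 0.283). Both overlapped through the library labelled MBC replicate 3. Of the TPM of the 3 genes, Atp5g1 took 62.6%, 32.2% and 35.6% in MBCs and 67.04%, 56.1%, 60.7% and 60.6% in PCs, an overlap that lay in MBC replicate 1. Atp5g3 took 32.3%, 51.5% and 31.7% in MBCs and 22.4%, 28.2%, 22.3% and 24.5% in PCs, less in every PC library than in any MBC library.

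The catalytic head of ATP synthase holds the subunits that make ATP. Atp5b, the catalytic beta subunit, was 403, 959.99 and 1161 scaled TPM in MBCs and 1181, 1442, 1027 and 1447 in PCs (0.72, SE 0.41; limma, adjusted p = 0.322). Atp5a1, the alpha subunit, was 65.9, 122 and 245 in MBCs and 171, 247, 206 and 278 in PCs (0.82, SE 0.44; limma, adjusted p = 0.294), and Atp5c1, the central stalk, was 59.3, 99.5 and 170.4 against 94.03, 179, 91.7 and 167 (0.34, SE 0.44). In all 3 the library labelled MBC replicate 3 lay within the PC range. The largest log2 fold changes of the 16 genes stood in the small membrane subunits Atp5mpl and Atp5k. This did not hold for all small membrane subunits: Atp5j2 was at 0.97 and Atp5l at 0.93, against 1.10 for Atp5d of the head. Atp5mpl was 0, 0 and 64.4 scaled TPM in MBCs and 32.4, 79.8, 44.03 and 67.2 in PCs (3.74, SE 1.29; limma, adjusted p = 0.114). Atp5k, the e subunit, was 0.499, 1.19 and 61.95 in MBCs and 44.9, 55.4, 21.8 and 60.1 in PCs (2.88, SE 1.13; limma, adjusted p = 0.154). Both were at or near 0 in MBC replicates 1 and 2 and at or above a PC level in the library labelled MBC replicate 3. Without that library 10 of the 16 genes were called higher (15.1% of all genes). Atp5s, counted apart, was 11.4, 3.59 and 2.66 in MBCs and 0.582, 3.31, 2.47 and 3.05 in PCs (-0.92, SE 0.62).

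Assembly factors build the complexes without staying in them. Of the 11 here, 6 had a positive and 5 a negative log2 fold change, with a median of 0.51 and 0 called. Without the library labelled MBC replicate 3, 3 of the 11 were called higher (15.1% of all genes). Ndufaf8, a complex I assembly factor, was 0, 0 and 11.1 scaled TPM in MBCs and 11.97, 17.4, 15.2 and 15.4 in PCs, with no overlap (2.79, SE 0.85; limma, adjusted p = 0.0786). Uqcc2 and Uqcc3, complex III assembly factors, were also at 0 in MBC replicates 1 and 2, but overlapped through the library labelled replicate 3, at 11.9 and 7.86 scaled TPM. Ndufaf5 and Ndufaf2 each had 1 high library, MBC replicate 2, at 90.2 and 86.9 scaled TPM where no other library exceeded 6.36 and 10.9. Ndufaf5 had the lowest log2 fold change among the 89 genes (-2.11, SE 0.94; limma, adjusted p = 0.209).

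**Figure D4:**
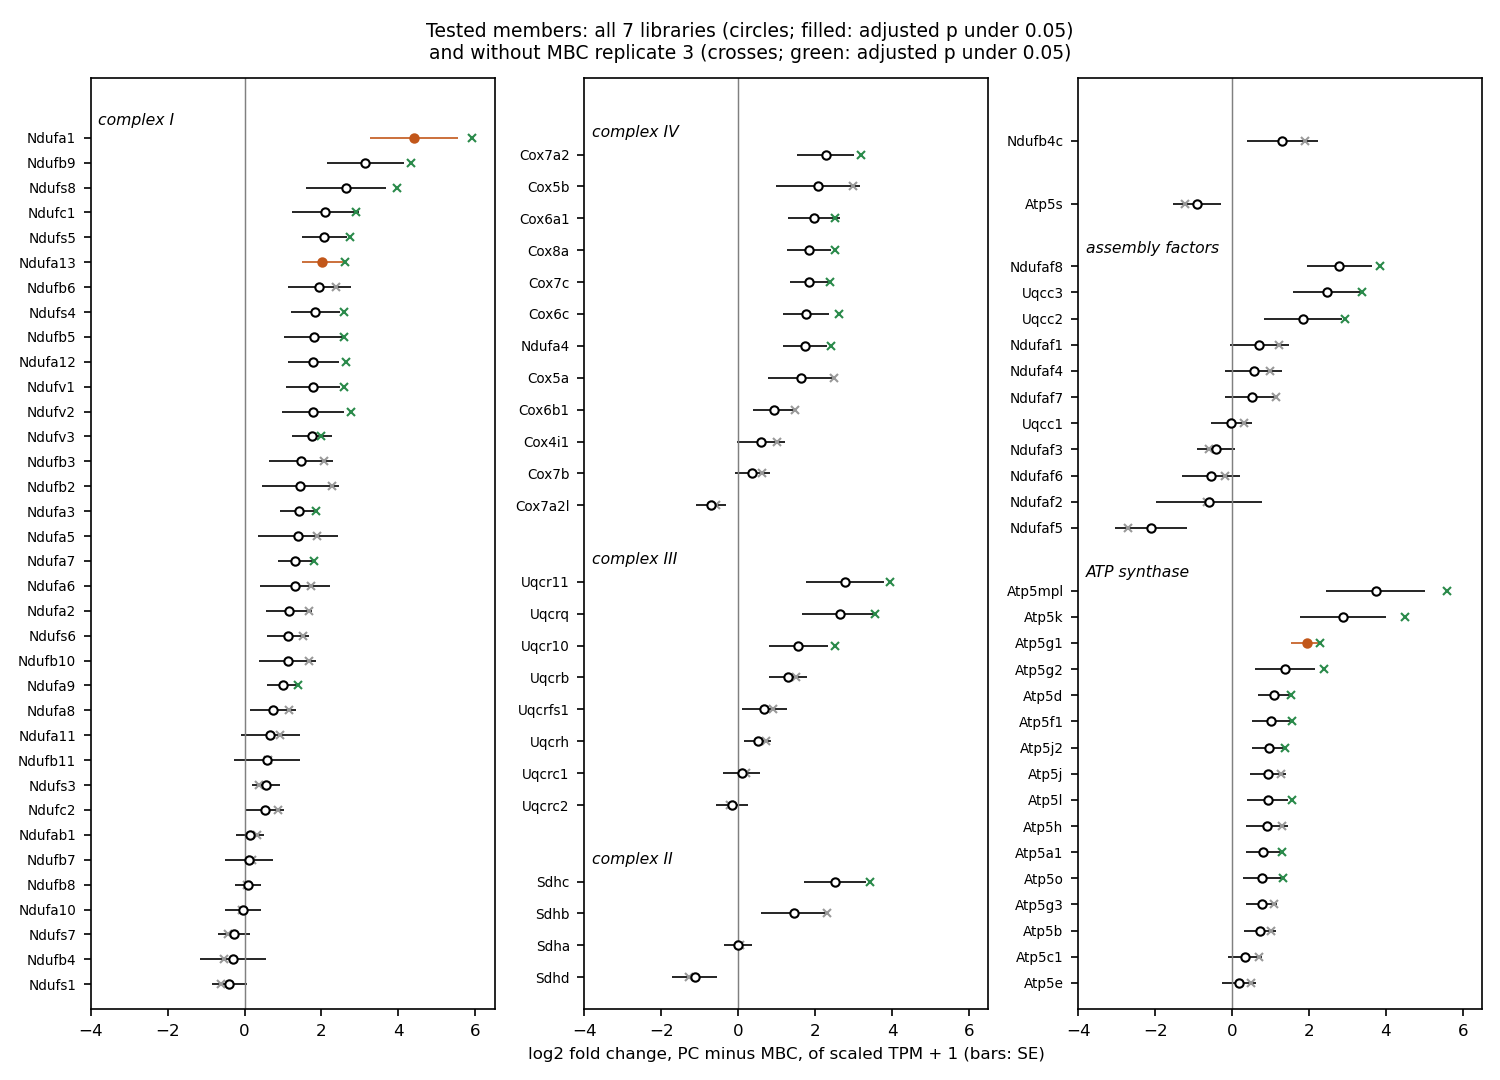
Log2 fold change (PC minus MBC, of scaled TPM + 1) of tested genes by complex (1 gene not shown), with SE bars for all 7 libraries and crosses for the fit without the library labelled MBC replicate 3. Atp5g1, Ndufa1 and Ndufa13 are past an adjusted p of 0.05 with all libraries, as are 6.41% of all genes higher in PCs. Without that library 38 genes are, and 15.1% of all genes.

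Many of these genes are short, and fold changes varied with length. The median annotated transcript length was 617 bases for the 89 genes and 1211 bases for the 11535 tested genes with a length. Among transcripts under 700 bases the median log2 fold change was 1.31 for 53 genes of the family and 0.35 for 2403 other genes, and from 700 to 1000 bases it was 0.77 for 25 and 0.18 for 2516. From 1000 to 1500 bases it was 0.69 for 8 and 0.21 for 1715, and other genes of 2500 bases or more had -0.06. The family lay above other genes of like length in these bins, while short genes outside it also had higher values than long ones. The part of length in the result was not tested.

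**Figure D5:**
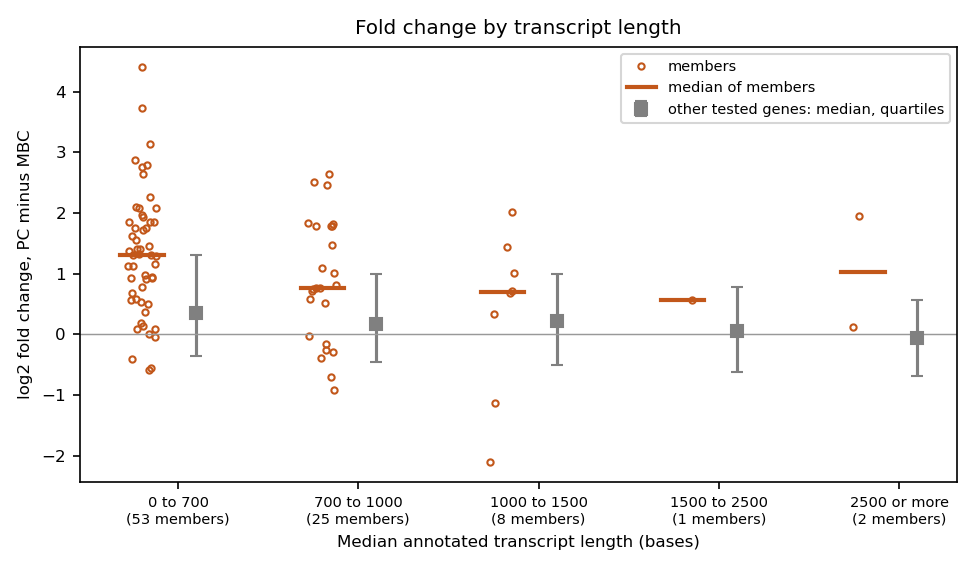
Log2 fold change (PC minus MBC) by median annotated transcript length (bases), for tested genes of the family and for the median and quartiles of other tested genes. Under 700 bases the family has a median of 1.31 and other genes 0.35, and from 700 to 1000 bases 0.77 and 0.18.

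The partner subunits encoded by the mitochondrial genome had the opposite sign. Over 13 genes the median log2 fold change was -0.20, 10 were negative, and limma called 0 in either direction, also at an unadjusted p under 0.05. Without the library labelled MBC replicate 3 the median was -0.75. Then 3 of the 13 were called lower (8.24% of all genes) and 0 higher (15.1% of all genes). The groups did not overlap for 9, all lower in PCs (18.1% of all genes). Summed scaled TPM of the 13 was 18510.3 for MBC replicate 1, 25748 for replicate 2 and 5174 for the library labelled replicate 3, against 14919.8, 10008.3, 13544.5 and 8729.9 in PCs. For complex I the ratio of nuclear to mitochondrial TPM was 0.095, 0.095 and 0.805 in MBCs and 0.316, 0.662, 0.255 and 0.713 in PCs. MBC replicates 1 and 2 had the lowest ratios and the library labelled MBC replicate 3 the highest of the 7, so the groups overlapped. Complexes III, IV and ATP synthase had the same order of MBC libraries against PCs.

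Other genes around the pathway were counted in the same fit, where limma called 6.41% of all genes higher and 2.14% lower. Among 10 electron carriers and nuclear subunits outside the symbol rule the median was 0.82 and 0 were called. One of them, Cyc1, the cytochrome c1 of complex III, was 4.19, 15.6 and 33.4 scaled TPM in MBCs and 42.3, 39.1, 38.6 and 35.8 in PCs (1.47, SE 0.58; limma, adjusted p = 0.157). Of 19 genes of pyruvate entry, pyruvate dehydrogenase and the citric acid cycle (median 0.17), 1 was called higher and 0 lower. This was Mpc2, a subunit of the mitochondrial pyruvate carrier, at 6.89, 0.553 and 11.2 scaled TPM in MBCs and 38.4, 66.99, 43.7 and 43.1 in PCs (3.18, SE 0.66; limma, adjusted p = 0.0168). The median was 0.30 over 36 other assembly factors, 0.28 over 13 genes of coenzyme Q synthesis and 0.66 over 7 carriers and pores, with 0 called in these lists. Mitochondrial ribosomal proteins, which translate the mitochondrial subunits, had a median of 0.81 over 78 genes, with 0 called and 19 higher at an unadjusted p under 0.05 (15.3% of all genes). Cytosolic ribosomal proteins had 0.03 over 86 genes, with 3 called higher and 0 lower. Without the library labelled MBC replicate 3, limma called 15.1% of all genes higher and 8.24% lower. It then called 23 of 78 mitochondrial ribosomal proteins higher (median 1.13) and 0 lower. Of 35 other assembly factors, 7 were called higher and 2 lower. Called higher were also 3 of 10 electron carriers or subunits outside the rule and 2 of 7 carriers or pores (median 1.23). So were 2 of 19 genes of the pyruvate and citric acid cycle list and 6 of 85 cytosolic ribosomal proteins.

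Regulators of the pathway had a negative median. Of 16 tested, 10 were negative, the median was -0.48, and limma called 0, with 1 higher (15.3% of all genes) and 4 lower (8.93% of all genes) at an unadjusted p under 0.05. Without the library labelled MBC replicate 3, 1 of 14 was called higher (15.1% of all genes) and 0 lower (8.24% of all genes). Ppargc1b, Gabpb1, Lrpprc and Hif1a, 4 of the 16, lay lower in every PC library than in any MBC library (8.68% of all genes). Ppargc1b, a coactivator of mitochondrial genes, was 2.17, 3.61 and 1.403 scaled TPM in MBCs and 0.739, 0.401, 0.234 and 0.516 in PCs (-1.16, SE 0.43; limma, adjusted p = 0.134). Lrpprc, which stabilizes mitochondrial messenger RNA, was 34.6, 28.4 and 20.7 against 9.83, 12.8, 13.9 and 17.8 (-0.99, SE 0.39; limma, adjusted p = 0.16). Nrf1, whose motif was counted above, was 11.8, 15.7 and 14.4 in MBCs and 16.8, 12.6, 6.58 and 13.3 in PCs, which overlapped (-0.23, SE 0.44).

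The direction depended on how the libraries were put on a common scale. With TPM as deposited, where immunoglobulin transcripts lower every other value of a PC library, the median log2 fold change of the 89 genes was -0.20 and that of all genes -0.91. No gene of the family was then called higher by limma, and 10 of 89 (11.2%; 26.1% of all genes) were called lower, among them Sdha, Sdhd, Ndufs1, Ndufs7, Uqcrc2 and Cox7a2l. Relative to the median of all genes, the family was higher in PCs by 0.96 on scaled TPM and by 0.71 on TPM as deposited.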

How the data were processed

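Bulk RNA was sequenced (Illumina HiSeq, Nugen cDNA kit) for 3 libraries of memory B cells and 4 of plasma cells. Groups were read from the sample labels. The authors deposited TPM for 48795 Ensembl genes. The submitters' processing notes name STAR 2.5.2a, RSEM 1.3.0, DESeq2 1.18.1 and GRCm38 without roles, and the annotation release is not given in the sources used here. Symbols, biotypes and lengths came from GENCODE M21 (48349 genes matched) and promoters from RefSeq. The genes of the family, the lists and the rules were chosen with earlier results of these data known.

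Each library's TPM were scaled by the median of its ratios to gene-wise geometric means, taken over 9305 genes that were above 0 throughout. A filter of 1 TPM in 3 or more libraries left 11573 genes. Differences in log2(scaled TPM + 1) were tested by limma 3.58.1 (R 4.3.3; lmFit, eBayes with trend) without covariates, and a call needed a p under 0.05 after Benjamini-Hochberg adjustment over all genes tested. The pseudocount understates changes of low genes. A test by the authors for these libraries is not described in the sources used here. The procedure was tested on simulated data. Reads per TPM were estimated from the steps of low values, and this and the length bins were chosen after seeing the data. Every pair of libraries differed in at least 99.3% of genes. Named genes were fixed core subunits and paralogs, called genes, and the gene with the smallest p of each complex. One gene of this rule is not reported here. Others were chosen after their values were seen. The 21 alternatives covered scaling, pseudocount, filter, limma settings, libraries left out, title codes and replicate numbers. Other steps used Python 3.11.15, pandas 2.3.3 and numpy 2.4.6.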

Additional observations from a re-analysis of the deposited data

Results flagged for a closer look

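Within the 4 PC libraries, 1 value of each of 3 genes lay far from the other values. Ndufa11 was 3.16 scaled TPM in PC replicate 3 and 5.96 to 6.12 in the others. Cox8a was 93.5 in PC replicate 3 and 121 to 125 in the others. Ndufs1 was 48.01 in PC replicate 1 and 20.97 to 23.7 in the others. In each, the gap to the nearest value took up more of the range than Dixon's 95% limit for 4 values allows. Of 101 sets of values examined 3 were past it, where chance gives about 1 in 20, or 5.05. The MBC group has 3 libraries and was not examined in this way.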

How the results depend on the processing

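The number of genes of the family called higher was 3, where 6.41% of all genes were. Brackets give the same for all genes. It was 0 with TPM as deposited (474 of 11573) and after removing immunoglobulin genes (394 of 11344). It was also 0 with quantile normalization (629 of 11573) and with all genes above 0 in 1 library (442 of 21326). A pseudocount of 0.1 (649 of 11573) and no mean-variance trend (720 of 11573) each gave 1. Removing immunoglobulin, mitochondrial genome and rRNA genes gave 1 as well (433 of 11328). It was 23 within the more frequent title prefix (9.89% of all genes). Leaving out single libraries gave 0 to 38. It was 38 without MBC replicate 3 (15.1% of all genes), and 0 without PC replicate 2 (456 of 11304) or 4 (477 of 11268). It was 1 (Atp5g1) without any other. Without MBC replicates 1 and 2 in turn, 599 of 11009 and 625 of 11203 of all genes were called higher. Without PC replicates 1 and 3 in turn, 583 of 11254 and 508 of 11186 were. Without MBC replicate 3 the groups did not overlap for 50 genes higher in PCs (26.4% of all genes). None was called lower except 10 with TPM as deposited (26.1% of all genes), where the median of the family was -0.20. The median of the family stayed above that of all genes under each of the 21 alternatives. That of the assembly factors relative to all genes ranged from -0.26 to 0.77 with single libraries left out. With TPM as deposited, the log2 ratio of mean summed levels was -0.56 for complex I, -1.28 for complex II, -0.64 for complex III, -0.47 for complex IV, -0.67 for ATP synthase, -1.73 for assembly factors and -0.64 for the whole family, and the log2 fold change was -1.16 for Ndufab1 and -1.30 for Sdha. For complex II the ratio was -0.25 after removing immunoglobulin genes and -0.088 after removing mitochondrial genome and rRNA genes too. With single libraries left out it was -0.091 to 0.23 for complex II, 0.69 to 1.49 for complex IV, and -0.87 to 0.30 for assembly factors. The causes were not tested.

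A replicate block by title code called 2 genes of the family (Atp5g1 and Ndufa1), and 456 of all 11304 genes higher. The same 6 libraries without a block called 0 of the family, and again 456 of all genes higher. A replicate block by replicate number called 0 of the family, and 391 of all 11268 genes higher. Deviations of libraries with the same title code had correlations of 0.11, -0.0044 and 0.22 for MBC replicates 1, 2 and 3. MBC replicate 1 and the library labelled MBC replicate 3 each correlated best with the PC library of their own code. MBC replicate 2 did not, and correlated best with PC replicate 1 (0.054). These low values do not decide whether equal codes mean paired libraries, and the main test used no pairs. Of the fold changes of single named genes under alternatives, 724 stayed on their side of the threshold, 32 newly passed it and 40 no longer passed it. The remaining 2, Ndufab1 and Sdha with TPM as deposited, passed it with the opposite sign. Some of the 724 also changed sign, as Ndufs3 did with TPM as deposited (-0.73, against 0.56). The log2 fold change of Sdha, close to 0, changed sign under 12 of the 21 alternatives. MBC replicates 1 and 2 have the fewest reads per TPM, which limits their low values.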

Other observations

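Outside the tested genes, the family had 11 members below the filter. Cox7b2, Cox8b, Cox8c and Ndufs6b were listed at 0 in all 7 libraries. Cox6c2 was listed above 0 in the library labelled MBC replicate 3 (2.38 scaled TPM) and in PC replicate 3 (3.25), and Ndufa11b in the same libraries (0.20 and 0.62). The share of the family in the TPM of nuclear genes other than immunoglobulin and rRNA genes was 0.82% for MBC replicate 1, 0.98% for replicate 2 and 2.02% for the library labelled replicate 3, against 1.65%, 2.21%, 1.61% and 2.14% in PCs. Genes of the family listed at 0 numbered 18, 20 and 6 in the MBC libraries and 7 to 9 in the PC libraries.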
